A study of Mus musculus with 9 samples.

Results

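Cytochromes P450 are haem enzymes that insert an oxygen atom into drugs, dietary compounds, fatty acids, sterols, steroids and vitamins. Most sit in the endoplasmic reticulum and take electrons from the reductase Por, while a few mitochondrial members use ferredoxin. In the gut epithelium they act on food and drug molecules during absorption and on locally made lipid mediators, and their transcription is set largely by nuclear receptors and the aryl hydrocarbon receptor. The P450 genes described here are the 46 protein-coding genes, of 17511 genes in the authors' deposited table, whose symbol starts with Cyp and a digit. RefSeq (GRCm38.p6) names 99 protein-coding genes of this form, and the 53 with no row in that table are not analysed here.

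The study examined mouse colon epithelial cells, enriched from fresh tissue with EDTA, by RNA-seq, by ATAC-seq of open chromatin and by ChIP-seq of the homeobox factor Cdx2. RNA-seq and ATAC-seq compared 2 libraries labelled DKO (strain Cdx1-/-Cdx2f/f vill (+), tamoxifen for 6 days) with 2 labelled Wt (strain Cdx1-/-Cdx2f/f vill (-), tamoxifen for 6 days). All groups therefore carried the Cdx1 null and floxed Cdx2 alleles by their labels, and what drives recombination is given only by the tag vill. The single ChIP library was labelled Wt, vill (-) and untreated. No label gives the animals' age or says that replicates came from separate animals, and every p-value rests on differences among these libraries, which may be technical.

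Below, the value given for a gene's RNA is the log2 fold change of DKO over Wt, SE is its standard error, and the mean is in normalized counts. The targeted gene checks the labels in part. Cdx2 RNA was at -0.27 (SE 0.21, adjusted p = 0.301, mean 9263) and not called, and Cdx1 RNA was at -1.06 (SE 0.23, adjusted p = 2.08e-05, mean 2595) although both groups carry its null allele, by the authors' deposited table. A gene total does not show whether a floxed exon is missing, so DKO and Wt below name the libraries by their labels alone. The 4 RNA libraries held 16403301 to 25494309 estimated reads. The ATAC lists held 48163 and 53943 peaks in Wt and 40101 and 23961 in DKO, and the Cdx2 list held 5179 peaks. Wt lists shared 73.3% and 64.1% of their peaks with each other, against 25.8% and 41.8% for the DKO lists, so the DKO lists were the less repeatable pair. In the authors' deposited table the epithelial markers Epcam (-0.22 on the log2 scale, adjusted p = 0.380) and Krt8 (-0.20, adjusted p = 0.407) were not called. Of 13 epithelial markers 2 were higher and 7 lower by the authors' deposited table (median -0.56), and of 8 goblet cell markers 7 were lower (median -3.77). Markers of stroma, muscle and endothelium were lower in 18 and higher in 1 of 20 (median -5.13), and B and plasma cell markers lower in 6 and higher in 1 of 11 (median -1.25), by the authors' deposited table. T cell markers were higher in 3 and lower in 0 of 11 (median 0.36) and myeloid markers higher in 5 and lower in 2 of 13 (median 0.53) there. These lists moved with the genotype labels, and their part in the P450 results was not tested. In bulk libraries of this kind fewer cells of a type and less RNA per cell cannot be told apart.

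More P450 genes were lower in DKO than higher. The authors' deposited table called 17 of the 46 lower and 5 higher at an adjusted p under 0.05, where 18.3% of all its genes were lower and 18.5% higher. In percent of members this was 37.0% lower and 10.9% higher, and 36.8% of all genes were called in either direction against 47.8% of the P450 genes. With a change of at least 2-fold added, 15 were lower and 3 higher by the authors' deposited table, against 13.2% and 11.0% of all genes. Their median log2 fold change was -0.48, and that of all genes -0.02. Calls by the authors' deposited table were 14 lower and 3 higher among the 27 members whose mean reached 50 normalized counts, and 3 lower and 2 higher among the other 19. Of all genes with a mean of at least 50, 19.5% were lower and 24.7% higher, and of those under 50, 15.7% and 4.58%. Of all protein-coding genes 19.9% were lower and 21.1% higher. Normalized counts are not divided by gene length, so a mean gives the depth behind a fold change and not a rank of expression between genes. The deposited gene values are means over all 4 libraries, and no value per library can be given for a gene here.

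**Figure D1:**
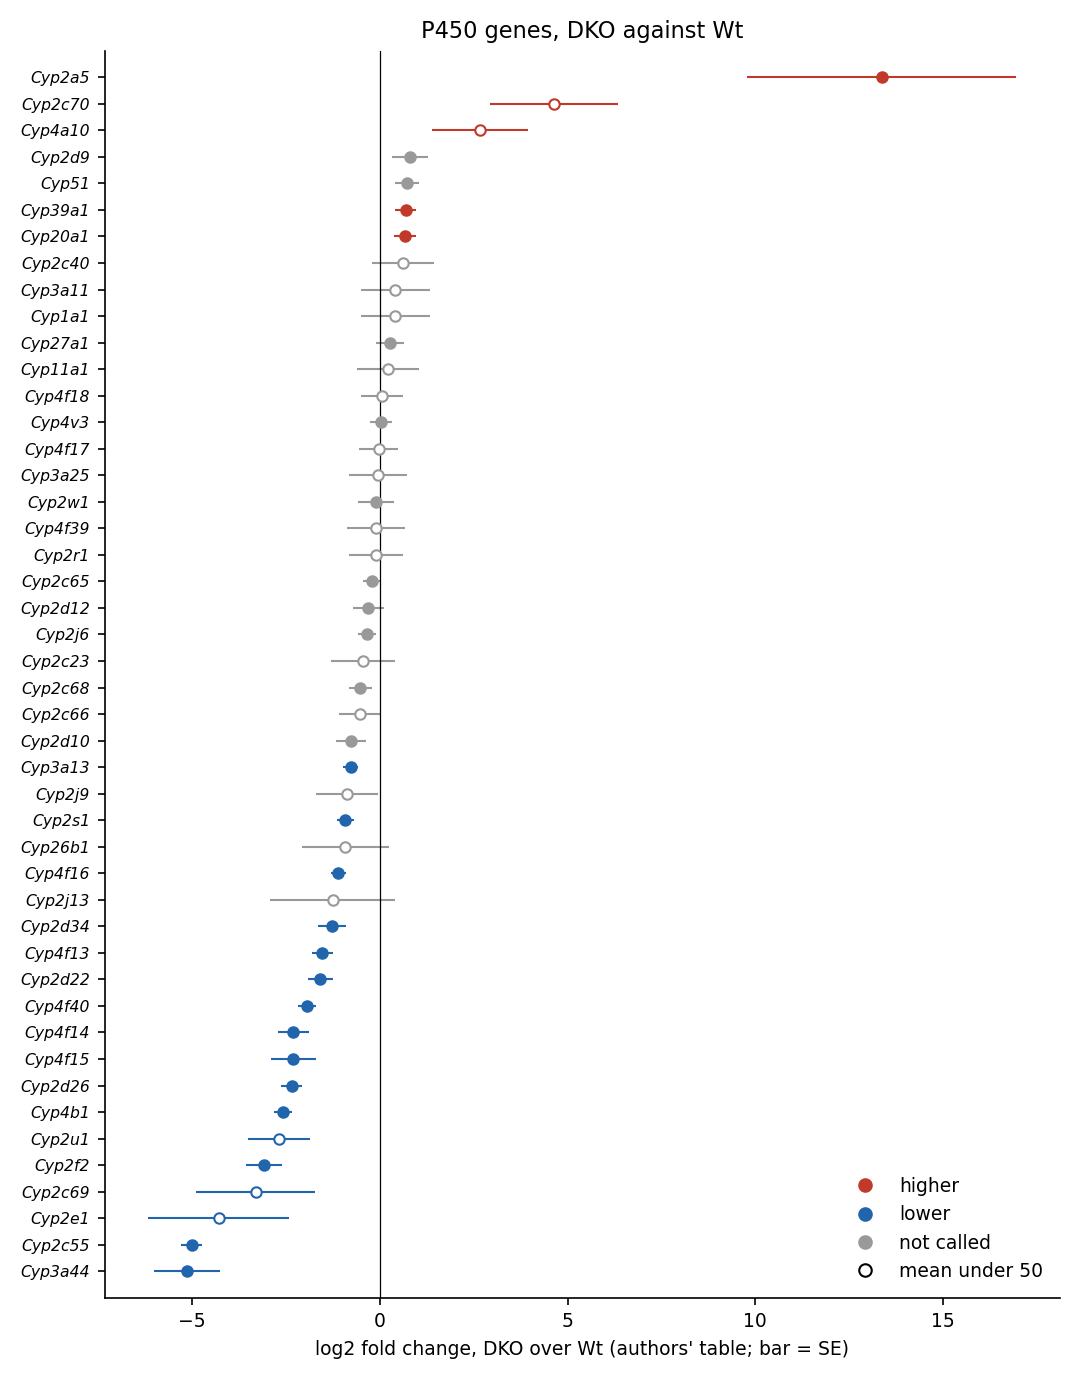
Log2 fold change of DKO over Wt for each of the 46 P450 genes by the authors' deposited table, with its standard error as a bar; colours give the call at an adjusted p under 0.05 and open circles a mean under 50 normalized counts. The 17 lower genes run from -5.14 to -0.77, and Cyp2a5 stands apart at 13.37 with a wide bar.

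The lowest fold changes were those of Cyp3a44 and Cyp2c55, enzymes of foreign compounds and lipids in subfamilies 3a and 2c. Cyp2c55 (ENSMUSG00000025002, chr19:39006940-39042690, plus strand), a colon-expressed member that hydroxylates arachidonic acid, had the highest mean of the family, 16657 normalized counts, and was lower in DKO 32.3-fold by the authors' deposited table (-5.01 on the log2 scale, SE 0.28, adjusted p = 6.85e-69). Cyp3a44 (chr5:145773983-145805891), a steroid- and drug-hydroxylating member, was at -5.14 (SE 0.87, adjusted p = 7.44e-09) by the authors' deposited table on a mean of 74.4. Its promoter is 93.4% identical to that of Cyp3a16, so reads of these 2 genes may be hard to separate. The intestinal member Cyp3a13 (chr5:137892933-137925610) was lower by a smaller step, -0.77 (SE 0.20, adjusted p = 0.000495, mean 4014), by the authors' deposited table. The remaining family 3 genes, Cyp3a11 (0.41) and Cyp3a25 (-0.04), had means of 5.53 and 9.89 and were not called by the authors' deposited table.

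The Cyp2c genes of chromosome 19 did not move together. The 7 measured genes of this 1180 kb cluster comprised 2 lower, 1 higher and 4 uncalled genes by the authors' deposited table. Cyp2c65 (chr19:39061006-39093948), the next measured P450 gene after Cyp2c55, was at -0.22 (SE 0.22, adjusted p = 0.447) on a mean of 4161, and Cyp2c66 beyond it at -0.53 (SE 0.55, adjusted p = 0.379) on 44.3, by the authors' deposited table. These 2 neighbours did not pass the test, while the gene beside them had the lowest adjusted p of the family. Cyp2c68 (-0.53, adjusted p = 0.144) and Cyp2c40 (0.62, adjusted p = 0.374) did not pass either, and Cyp2c69 was lower (-3.31, SE 1.58, adjusted p = 0.00756) on a mean of 20.7, by the authors' deposited table. Cyp2c68 and Cyp2c69 have promoters that are 91.1% identical. At the far end Cyp2c70, which makes muricholic acids in rodent bile, was higher at 4.63 (SE 1.71, adjusted p = 0.00220) by the authors' deposited table, on a mean of 27.5. Cyp2c23, further along the chromosome and outside the cluster, was at -0.44 (adjusted p = 0.502) on a mean of 8.17 by the authors' deposited table. Differences between neighbouring genes were not tested.

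**Figure D2:**
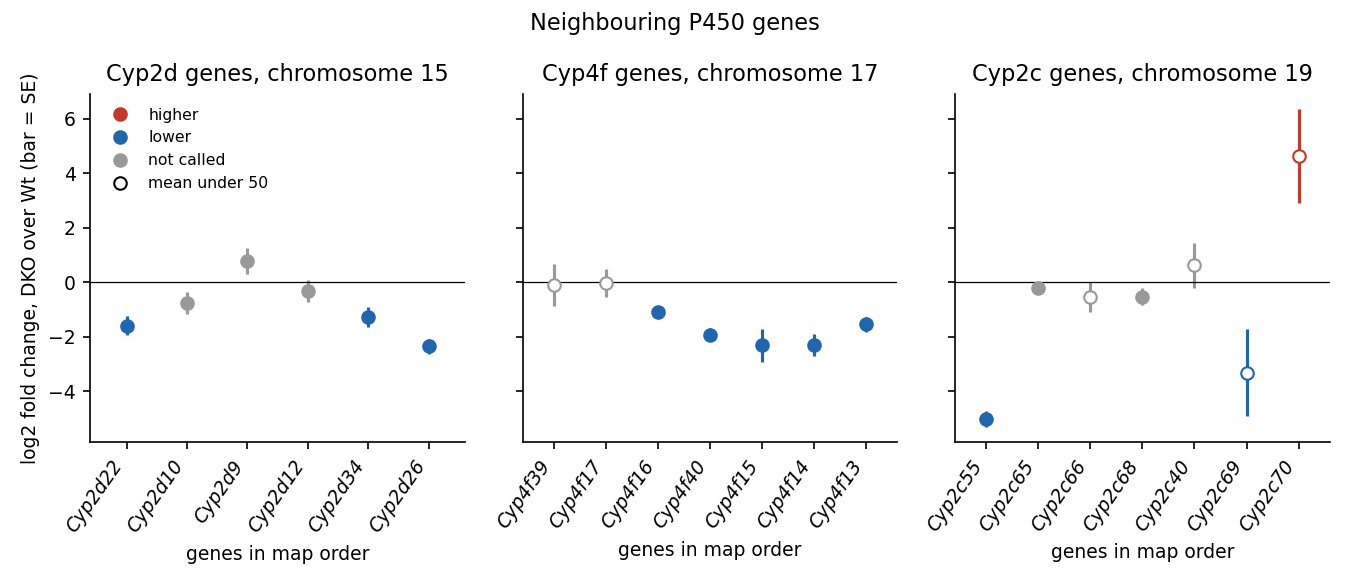
Log2 fold change of DKO over Wt, with SE bars, for the measured P450 genes of the 3 clusters with 6 or more members, in map order and from the authors' deposited table. The 5 adjacent genes of the Cyp4f cluster are all lower, while the Cyp2c cluster holds values from -5.01 to 4.63.

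Cyp4f genes, which hydroxylate leukotrienes, long fatty acids and vitamin E at their tail, were lower as neighbours. In the cluster on chromosome 17 (chr17:32452697-32947415) the authors' deposited table called 5 of 7 lower and 0 higher, with a median of -1.54. Cyp4f14, a leukotriene B4 hydroxylase, was at -2.30 (SE 0.40, adjusted p = 2.82e-08, mean 2285) and Cyp4f15 at -2.30 (SE 0.60, adjusted p = 0.000127, mean 58.4) by the authors' deposited table. Cyp4f40 was 3.82-fold lower (-1.93, SE 0.24, adjusted p = 3.03e-15, mean 1047) and Cyp4f13 2.90-fold lower (-1.54, SE 0.28, adjusted p = 1.08e-07, mean 1419) by the authors' deposited table. Cyp4f16, the first of these 5 adjacent measured genes, was at -1.11 (SE 0.20, adjusted p = 1.44e-07, mean 1418) by the authors' deposited table. The other two genes of the cluster, Cyp4f39 (-0.10) and Cyp4f17 (-0.03), lie at its start, had means of 8.14 and 39.3 and were not called by the authors' deposited table. Cyp4f18, the leukotriene hydroxylase of neutrophils, lies on another chromosome and was at 0.06 (adjusted p = 0.945, mean 34.4) by the authors' deposited table. Of 13 myeloid markers 5 were higher and 2 lower, and any tie of this value to them was not tested.

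The remaining family 4 and fatty acid members went both ways. Cyp4b1 (chr4:115624698-115647721), an extrahepatic enzyme of fatty acids and furans, was 5.98-fold lower (-2.58, SE 0.25, adjusted p = 3.89e-24, mean 837) by the authors' deposited table. Its neighbour Cyp4a10, a fatty acid hydroxylase and target of the lipid receptor PPARα, was higher at 2.68 (SE 1.28, adjusted p = 0.00990) on a mean of 21.5, and Ppara itself was higher at 1.46 (SE 0.35, adjusted p = 6.59e-05), by the authors' deposited table. Cyp2u1, a hydroxylase of long fatty acids, was lower at -2.69 (SE 0.82, adjusted p = 0.000622) on a mean of 32.3 by the authors' deposited table. The arachidonic acid epoxygenases of subfamily 2j did not pass the test by the authors' deposited table, with Cyp2j6 at -0.35 (SE 0.24, adjusted p = 0.239, mean 1364), Cyp2j9 at -0.87 (adjusted p = 0.215) and Cyp2j13 at -1.26 (adjusted p = 0.0948). Cyp4v3, the mouse counterpart of a fatty acid hydroxylase tied to corneal and retinal disease, was at 0.04 (adjusted p = 0.943, mean 266.5) by the authors' deposited table.

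Of the drug-metabolizing Cyp2d genes, 6 within 424 kb of chromosome 15, 3 were lower and 0 higher by the authors' deposited table. Cyp2d26 was 5.10-fold lower (-2.35, SE 0.28, adjusted p = 2.85e-16, mean 717), and Cyp2d22, often likened to human CYP2D6, was 3.01-fold lower (-1.59, SE 0.34, adjusted p = 7.53e-06, mean 604), by the authors' deposited table. Cyp2d34 was at -1.28 (SE 0.37, adjusted p = 0.000949, mean 3339) by the authors' deposited table. Between them Cyp2d10 (-0.77, adjusted p = 0.0787, mean 721), Cyp2d12 (-0.31, adjusted p = 0.548, mean 615) and Cyp2d9 (0.79, adjusted p = 0.124, mean 846) did not pass by the authors' deposited table. The promoters of Cyp2d10 and Cyp2d9 are 83.3% identical, and that of Cyp2d26 is 55.6% identical to its nearest P450 promoter. Cyp2d22, Cyp2d12 and Cyp2d34 had no promoter entry to compare. Reads could be split among genes of this subfamily, which was not tested. Cyp2f2, the naphthalene-oxidizing enzyme of airway club cells, was 8.52-fold lower (-3.09, SE 0.49, adjusted p = 5.29e-10, mean 97.2) by the authors' deposited table. Cyp2s1, an extrahepatic enzyme inducible through the aryl hydrocarbon receptor, was at -0.92 (SE 0.22, adjusted p = 9.10e-05, mean 1895) by the authors' deposited table. Cyp2e1, the ethanol-oxidizing enzyme, was lower at -4.30 (SE 1.88, adjusted p = 0.0102) on a mean of 11.7, and Cyp2w1, a P450 known from fetal colon and colon tumours, was at -0.10 (adjusted p = 0.888) on 54.5, by the authors' deposited table. Cyp1a1, the classical target of the aryl hydrocarbon receptor, had a mean of 6.39 and was at 0.41 (adjusted p = 0.489) by the authors' deposited table.

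Cyp2a5 (chr7:26835339-26843264, plus strand), which oxidizes coumarin and nicotine, rose further than any other P450 gene, to 13.37 on the log2 scale (SE 3.59, adjusted p = 5.05e-09, mean 742.5) by the authors' deposited table. A value of this size means that almost all its reads came from DKO, so the fold itself is loosely set, and a gene so low in Wt could enter the table only through DKO. Its promoter is 97.7% identical to that of Cyp2a4, a gene with no row in the table, so the reads may belong to either. Genes fixed as hepatocyte markers moved the same way, higher in 7 and lower in 1 of 10 (median 1.90), with Alb at 3.88 (SE 0.43, adjusted p = 9.75e-19, mean 154) and Ttr at 1.36 (SE 0.20, adjusted p = 1.03e-10, mean 1399), by the authors' deposited table. Their part in the Cyp2a5, Cyp2c70 and Cyp4a10 values was not tested. Cyp2e1 and Cyp3a11, both abundant in liver, rest on few reads here, with means of 11.7 and 5.53. By the authors' deposited table Cyp2e1 was lower (-4.30, SE 1.88) and Cyp3a11 not called (0.41, SE 0.93). Any tie of these 2 values to the hepatocyte markers was not tested.

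Of the 6 P450 genes grouped by a role in cholesterol and bile acid synthesis, the start of steroid synthesis, retinoic acid or vitamin D, 1 was called, Cyp39a1. Of all genes 36.8% were called in either direction, and of those with a mean under 50, 20.3%. Cyp51, the lanosterol demethylase of cholesterol synthesis, was at 0.72 (SE 0.33, adjusted p = 0.0524, mean 3220) and narrowly missed the threshold by the authors' deposited table. It passed with p-values readjusted over genes with a mean of at least 50 (adjusted p = 0.0437), from the authors' deposited table. Cyp39a1, an oxysterol hydroxylase of bile acid synthesis, was higher at 0.69 (SE 0.27, adjusted p = 0.0272, mean 379), and the mitochondrial sterol hydroxylase Cyp27a1 was at 0.27 (adjusted p = 0.601, mean 476), by the authors' deposited table. The orphan Cyp20a1 was higher at 0.67 (SE 0.29, adjusted p = 0.0409, mean 289.8) by the authors' deposited table. Cyp11a1, which starts steroid synthesis from cholesterol, Cyp2r1, a vitamin D hydroxylase, and Cyp26b1, which breaks down retinoic acid, had means of 8.60, 11.8 and 8.65 and were not called (0.22, -0.11 and -0.92) by the authors' deposited table.

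Genes that serve P450 enzymes are read against the same shares of all genes, 18.5% higher and 18.3% lower. The list of electron donors and haem supply had 18 genes, 8 higher and 2 lower by the authors' deposited table (median 0.57), with the reductase Por at 0.85 (SE 0.24, adjusted p = 0.00166, mean 6801), the haem synthesis enzyme Alad at 1.41 (SE 0.23, adjusted p = 3.98e-09), the P450-binding haem protein Pgrmc1 at 0.74 (SE 0.20, adjusted p = 0.000963) and cytochrome b5, Cyb5a, at 0.79 (SE 0.25, adjusted p = 0.00418). The 2 lower ones were Fdxr (-1.58, SE 0.26), which feeds mitochondrial P450s, and the haem synthesis enzyme Uros (-1.83, SE 0.39), by the authors' deposited table. The ferredoxin Fdx1 was higher there at 0.88 (SE 0.22, adjusted p = 0.000204). The 8 higher ones include Hmox1, which degrades haem, at 2.99 (SE 0.52, adjusted p = 1.72e-08), the largest change of the list. The haem synthesis enzyme Alas1 was at -0.54 (SE 0.24, adjusted p = 0.0512) and not called, by the authors' deposited table. Among 25 measured receptors and regulators 5 were higher and 5 lower by the authors' deposited table (median 0.08). Hnf4a, a nuclear receptor of gut and liver, was at -1.09 (SE 0.24, adjusted p = 2.10e-05, mean 14033), Vdr, the vitamin D receptor, at -0.86 (SE 0.18, adjusted p = 1.59e-05) and Ppard at -0.99 (SE 0.22, adjusted p = 2.19e-05) by the authors' deposited table. Nr1h4 (-0.60, SE 0.24) and Hnf4g (-1.85, SE 0.61) were also lower there. The 5 higher ones were Nfe2l2 (0.60, SE 0.25), Nr3c1 (0.74, SE 0.27), Arnt (0.57, SE 0.23), Tiparp (1.25, SE 0.36) and Ppara (1.46, SE 0.35). The drug sensor Nr1i2 (0.14, adjusted p = 0.744), its partner Rxra (-0.18, adjusted p = 0.527) and the aryl hydrocarbon receptor Ahr (0.57, adjusted p = 0.124) did not pass by the authors' deposited table.

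Other lists hold genes that work beside single P450 enzymes. Around Cyp51, 8 of 21 cholesterol synthesis genes were higher and 3 lower (median 0.31), with the synthase Hmgcs1 at 1.12 (SE 0.31, adjusted p = 0.000660), by the authors' deposited table. All 5 measured genes of vitamin D response and calcium handling were lower (median -2.06), among them the calcium pump Atp2b1 at -2.06 (SE 0.21) and the calcium-binding protein S100g at -1.87 (SE 0.37), by the authors' deposited table. Retinoid handling genes split into 7 higher and 7 lower of 16 (median -0.66), with the retinal dehydrogenase Aldh1a1 at -1.85 (SE 0.24) and the retinol-binding protein Rbp2 at 1.49 (SE 0.23), by the authors' deposited table. Of 9 steroid synthesis genes 1 was higher and 4 lower (median -0.59), with the cortisol-inactivating dehydrogenase Hsd11b2 at -1.62 (SE 0.35, mean 7357) and the steroid dehydrogenase Hsd3b3 at -7.34 (SE 0.26, mean 3347), by the authors' deposited table. For eicosanoid synthesis 2 of 16 genes were higher and 4 lower (median -0.21), with the prostaglandin dehydrogenase Hpgd at 0.53 (SE 0.18, adjusted p = 0.00861) and the leukotriene hydrolase Lta4h at -0.91 (SE 0.20, adjusted p = 2.12e-05), by the authors' deposited table. Fdx1, Fdxr, Vdr and Nr5a2 each stand in 2 of these lists.

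Open chromatin at the P450 genes was read from the 4 ATAC peak lists, each called on its own library. Within 2 kb of the gene span 12 of 46 genes had a peak in both Wt lists and in neither DKO list, called lost here, against 20.0% of the 16385 genes with a RefSeq span. The opposite pattern, gained, was found for 0 of 46 P450 genes and 0.702% of all genes. With 2 libraries a group an exact permutation test cannot go below p = 0.333, so these are counts without a test. Among the 17 lower genes 4 were lost by this rule, Cyp2u1, Cyp4f14, Cyp4f13 and Cyp2d34, or 23.5% against 23.4% of all lower genes. Among the 24 uncalled genes 7 were, or 29.2% against 20.7%, and among the 5 higher genes 1, where the share of all higher genes was 14.4%. A DKO peak anywhere in the window keeps a gene out of this class, also where it lies away from the Wt peaks. With peaks limited to a -log10 q of at least 5, 18 of 46 P450 genes were lost against 48.4% of all genes, so the P450 share was then the lower one. Without DKO replicate 2 the lost count was 19, against 33.2% of all genes. Gained counts were 2 without DKO replicate 1 (1.18% of all genes) and 1 without DKO replicate 2 (2.25%).

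Gene starts, within 1 kb of a RefSeq start, were counted apart. Among 38 P450 genes with a start in the promoter table, 20 had a peak in both Wt lists (52.6%, against 79.6% of all genes), and 13 of these 20 had none in either DKO list. That is 65.0%, where 41.1% of all genes open in both Wt lists were lost by the same rule. Taken over every gene with a start, 34.2% of P450 genes and 32.7% of all genes were lost, and 0 P450 genes and 0.215% of all genes were gained. Of 8 lower P450 genes with a start peak in both Wt lists 7 were lost, and 49.2% of all such lower genes. Of 10 uncalled P450 genes 5 were lost, against 43.3%, and of 2 higher ones 1, against 28.6%. Start peaks were fewer in the DKO lists for all genes, at 28.9% and 44.5% of starts against 81.0% or more in Wt. P450 start peaks were also weaker than those of all genes in Wt. In Wt replicates 1 and 2 their median fold enrichment, the authors' value for each peak, was 5.19 and 6.74 against 7.19 and 7.28. The part of these differences in the P450 counts was not tested. With an equal number of peaks taken from each list, the strongest 23961, 6 of the 38 were lost against 27.2% of all genes, and with a -log10 q of at least 5, 8 of the 38 against 52.7%. These shares are over every gene with a start, as are the 34.2% and 32.7% above. The 65.0% and 41.1% among genes open in both Wt lists were not recounted at these settings.

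**Figure D3:**
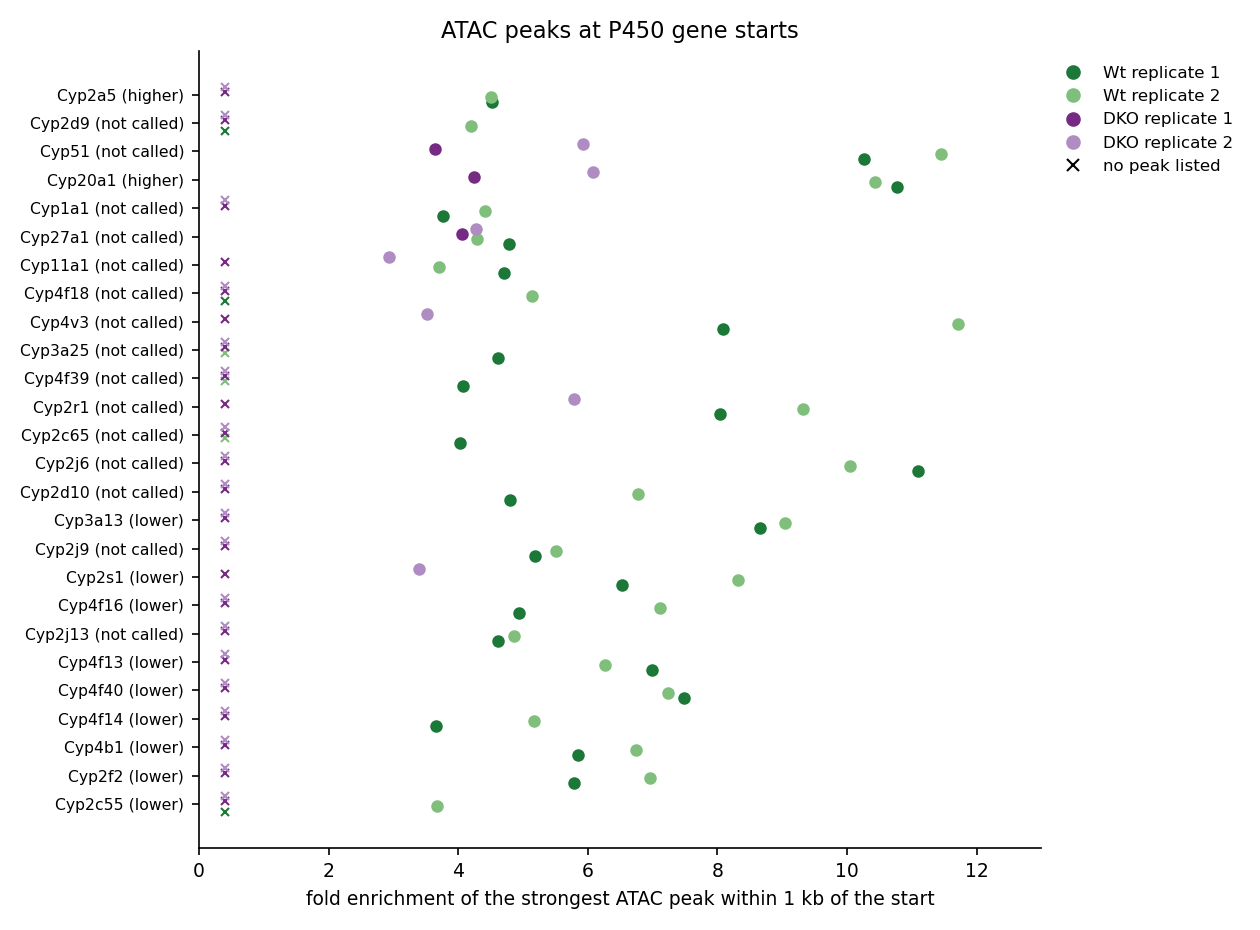
Fold enrichment of the strongest ATAC peak within 1 kb of a RefSeq start, in each of the 4 libraries, for the P450 genes with such a peak in any list; crosses near 0 mark lists with no peak, and the RNA call stands beside each name. The starts of Cyp51, Cyp20a1 and Cyp27a1 have peaks in all 4 lists, whereas 7 lower genes have peaks in both Wt lists alone.

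The fold enrichments, which are the authors' own values for each peak, show this gene by gene. Cyp3a13 had a start peak of 8.66 and 9.05 in Wt replicates 1 and 2 and none in DKO, and Cyp4f40 one of 7.49 and 7.23 with none in DKO. Cyp4f13 stood at 7.0 and 6.27, Cyp4f16 at 4.93 and 7.11, and Cyp4f14 at 3.67 and 5.18 in Wt, with no start peak in DKO. These 4 Cyp4f genes shared the pattern, while Cyp4f15, which was also lower, had no start peak in any list and Cyp4f39 had one in Wt replicate 1 alone. Cyp2f2 (5.79 and 6.96) and Cyp4b1 (5.85 and 6.74) were the other lost starts among the lower genes. Cyp4b1 also had a peak 2.49 and 2.45 kb upstream of its start in DKO replicates 1 and 2, with fold enrichments of 6.70 and 5.30, where neither Wt list held one. Cyp2s1 kept a start peak in DKO replicate 2 (3.40, where the median over all genes was 4.09), against 6.53 and 8.32 in Wt. The start of Cyp2c55 was listed in Wt replicate 2 alone (3.68), so the gene with the lowest adjusted p is not among the lost starts.

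Starts were also lost at genes whose RNA was not called lower. Of the 5 uncalled genes with a lost start, Cyp2j13 (-1.26), Cyp2j9 (-0.87), Cyp2d10 (-0.77) and Cyp2j6 (-0.35) had fold changes below 0 by the authors' deposited table. Cyp1a1 (0.41) was above it. Cyp2j6 had start peaks of 11.1 and 10.1 in Wt and none in DKO, and its RNA was not called. Cyp2a5 had start peaks of 4.52 and 4.51 in the Wt libraries and none in DKO, although its RNA was higher in DKO, and with its promoter so close to that of Cyp2a4 these reads may come from either gene. Start peaks were weaker in DKO over all genes, with a median fold enrichment of 7.19 and 7.28 in Wt and of 3.94 and 4.09 in DKO. The start of Cyp51 stood at 10.3 and 11.5 in Wt and at 3.65 and 5.93 in DKO, and that of Cyp20a1 at 10.8 and 10.4 against 4.24 and 6.08. Both genes had fold changes above 0, so lower peak values in DKO did not go with lower RNA there. Cyp27a1 had nearly equal values in the 4 lists, 4.78 and 4.29 in Wt and 4.06 and 4.28 in DKO. No peak in any ATAC list lay within 2 kb of 6 P450 genes, Cyp2c68, Cyp2c40, Cyp2c70, Cyp2d12, Cyp2d26 and Cyp2e1. The nearest P450 promoter was 91.1% identical for Cyp2c68 and 80.9% for Cyp2c40, and 55.6%, 53.9% and 53.7% for Cyp2d26, Cyp2e1 and Cyp2c70. Close copies may not hold uniquely placed reads, and the part of this in the missing peaks was not tested.

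Cdx2 peaks were listed within 10 kb of 11 of 46 P450 genes (23.9%), against 18.1% of all genes. Of the 17 lower genes 7 had one, of the 24 uncalled genes 4, and of the 5 higher genes 0. Near all lower genes of the table the share was 22.7%, near uncalled genes 16.6% and near higher genes 18.1%. Some neighbours share a peak (Cyp4f14 with Cyp4f13, and Cyp2j6 with Cyp2j9), so the genes rest on 11 distinct peaks from 1 library. Of those, 5 overlapped an ATAC peak of a Wt list and 0 one of a DKO list, where 44.4% and 5.21% of all Cdx2 peaks did. The strongest, with a fold enrichment of 12.0, lay inside Cyp4f13 (chr17:32936552-32936882), and the next, 8.98, lay outside the span of Cyp2d34 (chr15:82625035-82625274). Within 1 kb of a start a Cdx2 peak was found at 3 of 38 P450 genes, Cyp4f40, Cyp3a13 and Cyp2c65, and at 3.65% of all genes. At Cyp4f40 the peak (chr17:32658714-32659031, 5.20) and at Cyp3a13 the peak (chr5:137921705-137921915, 4.47) overlapped ATAC peaks of both Wt lists, and both genes were lower. At Cyp2c65 the Cdx2 peak (chr19:39060734-39061005, 6.81) overlapped an ATAC peak of Wt replicate 1, and the gene was not called. Cyp2c55 had a weaker Cdx2 peak 1.81 kb upstream of its start (chr19:39005100-39005329, 3.79), which overlapped an ATAC peak of Wt replicate 1 with a fold enrichment of 5.54.

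The promoters of these genes are shown because the Cdx2, ATAC and RNA values meet there. Each line gives the 250 bases before a RefSeq start (GRCm38.p6), 5′ to 3′ on the gene's strand, with matches to TTTATN on either strand in capitals. TTTATN is the core of the caudal motif that Cdx2 binds, and its form TTTATA reads TATAAA on the other strand, the core of the TATA box. The windows are chr19:39006769-39007018 and chr19:39060756-39061005 for the neighbours Cyp2c55 and Cyp2c65, and chr17:32658636-32658885 and chr5:137921620-137921869 (minus strand) for Cyp4f40 and Cyp3a13, with a Cdx2 peak at the start. The Cyp3a13 window precedes a RefSeq start that lies inside the gene span, and that of Cyp4f40 the first of its 2 starts. The Cyp2a5 window, of the gene that rose furthest, is chr7:26835089-26835338.
Cyp2c55: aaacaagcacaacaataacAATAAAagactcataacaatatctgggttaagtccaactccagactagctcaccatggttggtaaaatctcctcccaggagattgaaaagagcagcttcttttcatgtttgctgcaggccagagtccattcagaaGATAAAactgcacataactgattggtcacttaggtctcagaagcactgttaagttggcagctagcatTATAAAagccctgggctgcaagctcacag
Cyp2c65: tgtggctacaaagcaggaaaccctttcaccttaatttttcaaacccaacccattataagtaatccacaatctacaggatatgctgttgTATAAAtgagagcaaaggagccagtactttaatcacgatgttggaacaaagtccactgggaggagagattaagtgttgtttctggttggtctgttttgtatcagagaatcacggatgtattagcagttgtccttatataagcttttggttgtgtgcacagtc
Cyp4f40: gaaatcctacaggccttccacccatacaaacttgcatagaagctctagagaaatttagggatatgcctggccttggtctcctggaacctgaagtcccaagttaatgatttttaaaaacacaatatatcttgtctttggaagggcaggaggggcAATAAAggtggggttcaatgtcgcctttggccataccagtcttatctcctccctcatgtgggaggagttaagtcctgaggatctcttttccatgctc
Cyp3a13: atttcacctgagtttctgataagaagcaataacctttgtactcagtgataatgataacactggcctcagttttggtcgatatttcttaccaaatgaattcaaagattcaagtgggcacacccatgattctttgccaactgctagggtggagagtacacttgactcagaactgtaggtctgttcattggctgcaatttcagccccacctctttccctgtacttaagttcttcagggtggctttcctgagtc
Cyp2a5: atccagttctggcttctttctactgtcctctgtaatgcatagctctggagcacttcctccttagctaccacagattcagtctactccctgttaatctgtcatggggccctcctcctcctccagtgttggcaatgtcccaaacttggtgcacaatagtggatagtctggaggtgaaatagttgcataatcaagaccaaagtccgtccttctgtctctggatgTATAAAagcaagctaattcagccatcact

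Cyp2c55 has 3 matches before its start, with first bases 231, 96 and 29 bases upstream, and the nearest is the TATA form. Cyp2a5 has 1, the TATA form at 29 bases, and the promoter of Cyp2c65 holds the TATA form 162 bases upstream, inside its Cdx2 peak. The match of Cyp4f40, TTTATT on the opposite strand 97 bases upstream, also lies inside a Cdx2 peak. Cyp3a13 has 0 in this window, which says only that these letters are not there. Over the 300-base promoter windows (250 bases before and 50 after the start) of the 38 P450 genes, 22 held TTTATN (57.9%), against 31.3% of 12100 genes of the table. Among lower, uncalled and higher P450 genes the counts were 8 of 14, 12 of 21 and 2 of 3. TTTATA was found in 15 of 38 (39.5%) and in 10.2% of all genes, and the other forms of TTTATN in 14 of 38 (36.8%) and in 25.7%. P450 promoters are poorer in G and C than promoters of all genes, at a median of 51.3% against 60.0%, and the part of base composition in these shares was not tested. GCGTG, the core bound by the aryl hydrocarbon receptor, was found in 12 of 38 (31.6%) and in 52.3% of all genes on either strand, and Cyp1a1 holds it 54 bases upstream of its start.

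**Figure D4:**
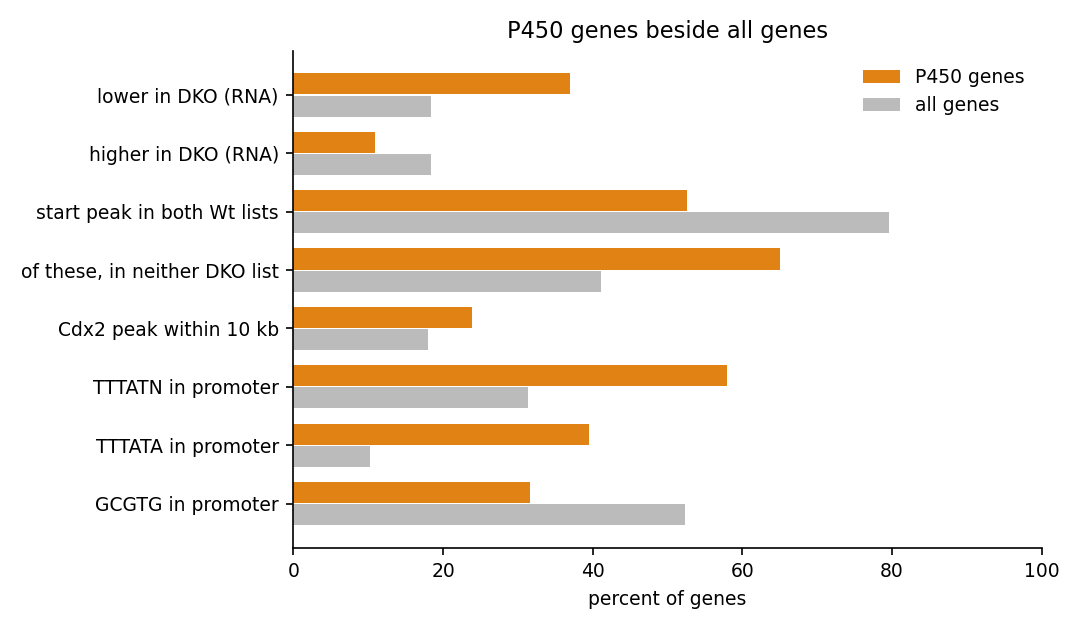
Percent of P450 genes (orange) and of all genes of the table (grey) with each property; the row on loss in DKO counts genes with a start peak in both Wt lists, and motif rows count genes with a promoter sequence. P450 genes are more often lower in RNA (37.0% against 18.3%) and more often hold TTTATA (39.5% against 10.2%), and less often have a start peak in both Wt lists (52.6% against 79.6%), with no test of these differences.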

How the data were processed

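Gene values are those of the authors' deposited table, which per the file headers gives a mean normalized count (a signal scaled between libraries), a log2 fold change of DKO over Wt with its SE, a p-value and an adjusted p for 17511 genes. Its column names are those of DESeq2, which the submitters' processing notes name beside BWA, Bowtie2, fastp, MACS2 and Salmon 1.3.0, with mm10 and GRCm38 as builds and no role for any of them. Its adjusted p was checked to be the Benjamini-Hochberg value of its p over the whole table. Fold over SE returns the deposited p within 0.01 in log10 for 3 of 46 members, so the folds appear shrunken. Per-library files hold estimated counts per transcript that the authors made with Salmon, per the file headers. Nothing used here pairs transcripts with genes, so these counts served for depth alone, and the planned edgeR and DESeq2 fits per gene were not run. Peaks were called per library, per the file headers, and each carries the authors' fold enrichment ratio and -log10 q. Which control, transposase shift and cutoff the calling used is not stated in any source read here, and the lists start at a -log10 q of 1.30 (ATAC) and 1.54 (ChIP).

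Peaks were joined to RefSeq spans and starts (GRCm38.p6, the assembly of mm10) with an overlap of at least 1 bp, with pandas 2.3.3 in Python 3.11.15, by code tested on simulated data. Of the members 46 had a span and 38 a promoter entry. Promoters of 78 P450 genes were aligned globally with Biopython 1.88. Members, roles, lists and tests were chosen with earlier results of these data known. Full values go to members past an adjusted p of 0.05 with a log2 change of at least 1 and a mean of at least 50, then to the 8 other members with the highest means and to those past a log2 change of 4. The remaining members are named to account for each one, and up to 4 genes among those with the highest means past the threshold stand for each pathway list. Fdx1 and Fdxr among the electron donors, Uros, Hmox1, Alas1 and the single marker genes were chosen after their values were seen. So were Ppara, Nr1i2, Rxra, Ahr, Nr3c1, Arnt, Tiparp, Nr1h4 and Hnf4g. Alternatives are given in the closing section.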

Additional observations from a re-analysis of the deposited data

How the results depend on the processing

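With p-values readjusted, the 17 lower and 5 higher P450 calls became 14 and 4 of 27 over genes with a mean of at least 50. Of all genes kept there, 20.2% were lower and 25.5% higher. The calls became 17 and 6 of 38 over genes with a mean of at least 10 (20.1% and 21.1% of all genes kept). Over protein-coding genes alone they were 17 and 6 of 46 (20.3% and 21.5%). The higher count was 3 at an adjusted p under 0.01 (13.5% of all genes) and 3 with a change of at least 2-fold (11.0%). Without the 5 members with a promoter at least 90% identical to that of another P450 gene, 15 were lower and 4 higher of 41. The shares of all genes stayed at 18.3% and 18.5%, and this choice was made after seeing the data. Centring on the median of all genes moves folds by 0.02 and leaves the deposited p-values as they are, so it tests no call. Genes lost over the span ranged from 13 to 19 with 1 ATAC library left out. The lowest count was without Wt replicate 1 (21.4% of all genes) and the highest without DKO replicate 2 (33.2%). Gained genes ranged from 0 to 2. They were 0 without Wt replicate 1 (0.989% of all genes) or Wt replicate 2 (1.39%). They were 2 without DKO replicate 1 (1.18%) and 1 without DKO replicate 2 (2.25%). With a -log10 q of at least 5, 18 genes were lost over the span (48.4% of all genes) and 8 starts (52.7%), which puts the P450 share below that of all genes. Within 10 kb of the span 1 gene was gained (0.940% of all genes). The start windows were also chosen after seeing the data. With the same number of peaks in each list, 6 starts were lost (27.2% of all genes) and 1 gained (0.669%). Cdx2 peaks stood within 1 kb of 7 and within 50 kb of 17 genes (12.5% and 35.6% of all genes). The longer motif TTTATGG matched 0 of 38 promoters (2.19% of all genes), and TTTATN without TTTATA 14 (25.7%). The cause of these shifts was not tested. No paired analysis was possible because the gene values are means over libraries and the peak lists gave counts with no test. Leaving out RNA libraries was not possible for the same reason. The depth of the ATAC and ChIP libraries is unknown, which limits what a missing peak can show.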

Other observations

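Of the 3 other rows with a P450 symbol, which are not protein-coding, the pseudogene Cyp2d37-ps was lower at -1.07 (SE 0.51, adjusted p = 0.0410) (mean 79.9) by the authors' deposited table. The Cyp2d13 row, annotated as a polymorphic pseudogene, was at -0.53 (adjusted p = 0.272, mean 139.8), and Cyp4f41-ps was at -0.45 (adjusted p = 0.495, mean 8.71), by the authors' deposited table. Both named Cyp2d rows belong to the same subfamily as the chromosome 15 genes, and reads may be shared with them.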
